A study of Mus musculus with 2 samples.

Results

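The genes described here encode cytochrome P450s and the other large enzyme families that clear drugs, toxins, steroids, lipids and aldehydes. They were set against the binding sites of FLAG-tagged HLF in mouse haematopoietic cells sorted as Lin-Sca-1+c-Kit+, a fraction rich in stem and progenitor cells. The set holds every protein-coding gene of a RefSeq table (GRCm38.p6) whose symbol belongs to the Cyp, Gst (classes a, m, p, t, o and z), Sult, Ugt1, Ugt2, Ces or Aldh families, plus Por and Alas1. It came to 202 of 21519 protein-coding genes. A gene was called near a peak when the centre of a peak lay in its body or within 20 kb of either end.

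The series compared 2 anti-FLAG chromatin immunoprecipitation sequencing libraries from C57BL/6 mice aged 8 to 10 weeks. The FLAG-HLF cells (n = 1) had been given a MigR1 retrovirus with the transgene labelled 3xFLAG-HLF/HLF, and the control cells (n = 1) the empty MigR1 vector. Both were kept for 5 days in OP9 medium to which 4 cytokines were added: 5 ng/ml of IL-3, 10 ng/ml of Flt3L, 10 ng/ml of IL-7 and 50 ng/ml of SCF. The tissue is labelled as blood. HLF was supplied by a retrovirus, so the peaks are those of introduced, tagged protein in cultured cells. A peak list holds no expression values, and the cells' identity could not be checked against their markers. The FLAG-HLF list has 3153 peaks of 400 bp on the mm10 build, with no score, summit or read count, and its depth is unknown. Peaks of the control library were not analysed here. With 1 list and no replicate, all values below are descriptions, and their 95% intervals cover counting error only. Neighbouring genes can share a peak, which makes intervals over genes too narrow.

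HLF belongs to the PAR bZIP family with DBP and TEF. These proteins bind palindromic sites close to TTACGTAA, and C/EBP proteins bind related sites of the TTGC...AA type. In mouse liver and kidney, PAR bZIP proteins are known as regulators of detoxification genes, among them those of the constitutive androstane receptor (Nr1i3), P450 oxidoreductase (Por) and the haem synthesis enzyme Alas1. P450s are haem enzymes that oxidise their substrates with electrons passed on by POR. Glutathione S-transferases, sulfotransferases and UDP-glucuronosyltransferases then attach a soluble group, carboxylesterases split esters, and aldehyde dehydrogenases turn aldehydes into acids.

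At 2 of the genes the peak lay on the start site and a site of this type lay at its middle. Gstt1 encodes a theta-class glutathione S-transferase, and Aldh3b1 an aldehyde dehydrogenase that acts on lipid-derived aldehydes. The stretches below are from the RefSeq promoter table (GRCm38.p6), on the strand of the gene, and the capitals mark TTGCATAA.
Gstt1 (site at chr10:75797763-75797770, minus strand): aatgaaagtgTTGCATAAtgggctgtgg
Aldh3b1 (site at chr19:3929756-3929763, minus strand): ctgttggaccTTGCATAAgggcagggtg
The middle of the site was 1 bp from the middle of the peak at Gstt1 and 2 bp from it at Aldh3b1. The site began 39 bases upstream of the listed start at Gstt1 and 15 bases downstream of it at Aldh3b1. Peaks outside the promoters of that table could not be searched for sites, as no other sequence was at hand.

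The same 8 letters also occurred in promoters of P450 and carboxylesterase genes that had no peak in reach. Of 188 promoter windows for 163 of the genes (250 bases before to 50 after a start), 11 held TTGCATAA on either strand, or 5.85%, against 0.798% of the 21044 windows of all protein-coding genes. These windows belong to 10 genes, and 2 of the 10, Gstt1 and Aldh3b1, were near a peak, against 15.3% of all protein-coding genes. The same Ces1b site was counted in overlapping windows. Those of Cyp2b10, Cyp2a4 and Cyp2a5 are shown because these P450 genes are known in mouse liver as PAR bZIP targets, and Ces1c because it also carried a PAR bZIP type site.
Cyp2b10 (site at chr7:25897600-25897607, plus strand): acagctgaagTTGCATAActgagtggag
Cyp2a4 (site at chr7:26307122-26307129, plus strand): ggtgaaatagTTGCATAAtcaagaccaa
Cyp2a5 (site at chr7:26835268-26835275, plus strand): ggtgaaatagTTGCATAAtcaagaccaa
Ces1c (site at chr8:93131515-93131522, minus strand): acagaagtgtTTGCATAAgaggttggat
The nearest peak centre was 179 kb from Cyp2b10, 588 kb from Cyp2a4, 1116 kb from Cyp2a5 and 1234 kb from Ces1c. The remaining genes with these letters were Cyp2b23, Cyp2b19, Ces1b and Cyp4f14, each 863 kb or more from a peak. Copies of an array share sequence: the stretch at Cyp2a4 is letter for letter that at Cyp2a5. A match is a run of letters and not a measured site. TTGCATAA was singled out after the peaks at Gstt1 and Aldh3b1 had been seen.

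The PAR bZIP type motif TTANGTAA, which covers TTACGTAA and its close variants, occurred in 10 of the 188 windows (5.32%, 95% interval 2.58 to 9.56%) against 2.13% of all windows. TTACGTAA itself occurred in 0 of 188, against 0.138%. The 10 windows belong to 9 genes: Ces1a, Ces1b, Ces1c, Ces1e, Ces1g, Ugt1a9, Ugt2b1, Sult1a1 and Cyp2c38. The same Ces1b site was counted in overlapping windows, and genes of an array share sequence, so the interval is too narrow. None of the 9 was near a peak, against 6.44% of the 202 genes and 15.3% of all protein-coding genes. With so few genes, 5 of them in 1 array, the count cannot be told apart from these shares. The closest was Sult1a1 at 55.9 kb. The 5 Ces1 genes among them, of 6 Ces1 genes with a promoter window, carried the variant TTATGTAA. Their sites are shown here because these genes lie in 1 array of liver-type carboxylesterases, each 1028 kb or more from any peak. Ces1b has the same stretch as Ces1c.
Ces1a (site at chr8:93048383-93048390, minus strand): gggaaagagcTTATGTAAgatgttgttg
Ces1c (site at chr8:93131370-93131377, minus strand): agggggagctTTATGTAAttatgctaat
Ces1e (site at chr8:93229693-93229700, minus strand): tgagagatatTTATGTAAgaagttgttt
Ces1g (site at chr8:93337434-93337441, minus strand): gggagaaacaTTATGTAAgatgttcctt
The C/EBP type motif TTGCNNAA, which covers TTGCATAA, occurred in 22.9% of the 188 windows against 10.3% of all windows. The antioxidant element TGACNNNGC occurred in 6.38% against 13.0%, and GCGTG, the core bound by the aryl hydrocarbon receptor, in 22.3% against 38.9%. All motifs were sought on both strands. The windows of these genes also had less G+C, with a median of 49.2% against 56.7%, and the part of base composition in these shares was not tested.

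In the whole peak list, 100 peaks had their middle 40 bases inside a promoter window of a protein-coding gene. Of these, 28 held TTGCNNAA there, 12 held TTGCATAA, which TTGCNNAA covers, and 4 held TTANGTAA. Among 147308 stretches of 40 bases cut from all windows, the shares were 1.25%, 0.0937% and 0.257% in that order. The peaks at Gstt1 and Aldh3b1, from which TTGCATAA was singled out, are among the 12.

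Of the 202 genes, 13 lay near a peak, or 6.44% (95% interval 3.47 to 10.8%), against 15.3% of all protein-coding genes. The share was lower than in all genes at each reach tried. The plot of the share by reach shows the body, 5, 20, 50 and 100 kb, which are nested and so not separate counts. In the gene body it was 1.98% (4 genes) against 6.94%. Within 1 kb of either end it was 0.990% (2 genes, 0.120 to 3.53%) against 1.76%, which lies within that interval. Within 5 kb of the body it was 2.97% (6 genes) against 9.58%, and within 50 kb 11.4% (23 genes) against 24.6%. Within 100 kb, a reach added after the data were seen, it was 27.7% (56 genes) against 36.9%. With a peak counted for 1 gene alone, the one whose end was closest (at most 100 kb away), it was 3.47% (7 genes) against 11.0%. When any base of the interval counted, it was 6.44% (13 genes) against 15.4%. Protein-coding genes in 5 classes of body length, weighted to the lengths of the 202, gave 15.7%, or 31.8 genes. That background was not weighted for tandem arrays, which hold many of the 202. Among other protein-coding genes, 5.64% with a neighbour of the same symbol stem within 100 kb were near a peak, against 17.6% without. The 202 genes with 20 kb on either side covered 11.1 Mb and held 11 peaks, or 0.988 per Mb (0.493 to 1.77, exact Poisson), against 1.80 per Mb (1.73 to 1.87) around all protein-coding genes. None of the 202 is on X, where peaks were few.

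**Figure D1:**
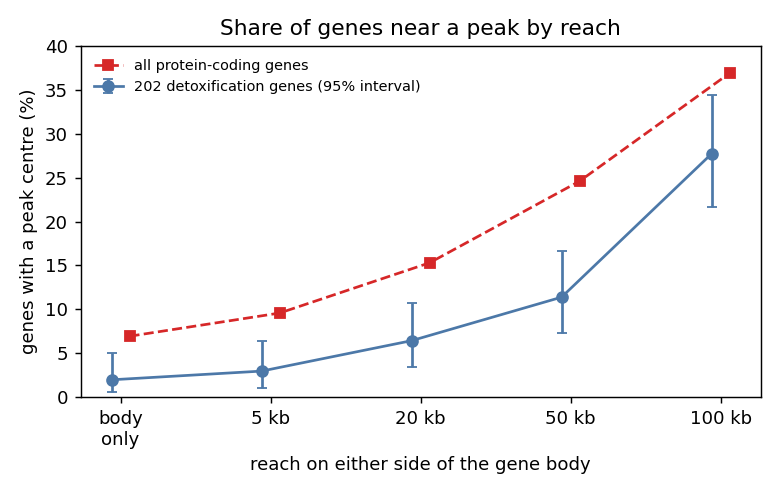
Share of genes (%, vertical axis) with a peak centre in the body or within the distance on the horizontal axis, for the 202 detoxification genes (circles, exact 95% intervals) and all protein-coding genes (squares). The circles lie below the squares at all 5 reaches, at 6.44% against 15.3% for 20 kb.

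Genes standing alone and genes in tandem arrays were near peaks in different shares, and the difference was not tested. When genes whose bodies lay within 100 kb of each other were joined, the 202 formed 86 loci, 53 of a single gene and 33 of several. Of the genes standing alone 8 of 53 were near a peak (15.1%, 6.75 to 27.6%), and of those in joined loci 5 of 149 (3.36%, 1.10 to 7.66%). Other protein-coding genes differed in the same direction: 5.64% (222 of 3940) of those with a neighbour of the same symbol stem within 100 kb were near a peak, against 17.6% (3059 of 17377) of those without. The split of other genes was chosen after the data were seen. By locus, 11 of 86 had a peak (12.8%, 6.56 to 21.7%), and of the 33 joined loci 3 did (9.09%, 1.92 to 24.3%). Loci of other protein-coding genes were not built. A joined locus covers more ground than a single gene, so these shares cannot be set against the share of all genes. The intervals of single and joined loci overlap. How reads from near-identical copies were placed is not given in the sources used here, and its part in the low share was not tested.

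The loci with 5 or more of these genes, a size chosen after the values were seen, numbered 15 and held 105 genes. Their nearest peak lay over 500 kb away for 9 loci, between 100 and 500 kb for 1 and under 100 kb for 5, with a median of 547 kb. The nearest were the Aldh3b and Gstp locus on chromosome 19, which held the peak at Aldh3b1, and 6 Cyp2d genes on chromosome 15 at 28.4 kb. The 9 Ugt1a genes, which share their last exons, followed at 57.6 kb. The 7 Gstm genes were at 68.9 kb and the 9 genes of the Cyp4a and Cyp4b1 locus, encoding fatty acid hydroxylases, at 81.2 kb. The 10 genes from Ces2a to Ces4a lay 298 kb from a peak. Some clusters were split by the 100 kb rule, so these distances depend on it. The neighbouring 3 Cyp3a genes from Cyp3a57 to Cyp3a41b, too few to count here, lay 178 kb from a peak. For the 5 Cyp3a genes from Cyp3a41a to Cyp3a59, whose products oxidise many drugs and steroids, the distance was 527 kb. It was 547 kb for 6 Cyp4f genes and 585 kb for 6 Sult2a genes. It was 803 kb for the 5 genes from Ugt2b34 to Ugt2b5, and 902 kb for the 7 Cyp2c genes from Cyp2c29 to Cyp2c69. The 8 genes from Cyp2b23 to Cyp2t4 on chromosome 7 lay 946 kb from a peak, and the 8 Ces1 genes 986 kb. The farthest were 5 Cyp2j genes at 1085 kb and the 8 genes from Ugt2b37 to Sult1e1 at 1154 kb.

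Over all 202 genes the median distance to the nearest peak centre was 302 kb, against 179 kb for all protein-coding genes. The gap was smaller when genes were split by a neighbour of the same symbol stem within 100 kb. With such a neighbour the median was 486 kb for these genes and 454 kb for other protein-coding genes. Without one it was 154 kb and 146 kb. The median was thus longer with such a neighbour in both sets. Single families were not set against other genes in arrays, and the part of arrays in these distances was not tested. For P450 families 1 to 3, which hold most drug-metabolising P450s, the median distance was 655 kb, and for the fatty acid hydroxylases of family 4 it was 510 kb. It was 803 kb for Ugt, 585 kb for Sult and 494 kb for Ces genes. The medians for Aldh (93.3 kb), Gst (96.1 kb) and the other P450 families (161 kb) lay below that of all genes. These last families hold the steroid, bile acid, vitamin D and retinoic acid P450s.

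**Figure D2:**
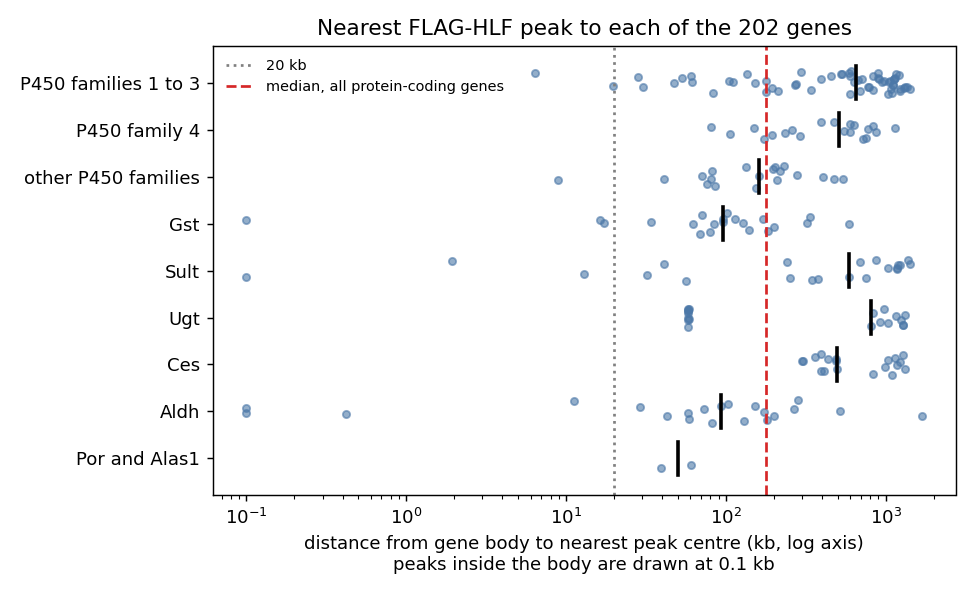
Distance from the gene body to the nearest peak centre (kb, log axis, peaks inside the body drawn at 0.1 kb) for each of the 202 genes by family. Short black bars are family medians, the dotted line is 20 kb, and the dashed line is the median of all protein-coding genes (179 kb). The points of Ugt and Ces all lie right of 20 kb.

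By enzyme family, aldehyde dehydrogenases had 4 of 21 genes near a peak (19.0%, 5.45 to 41.9%). Glutathione S-transferases and sulfotransferases each had 3 of 21 (14.3%, 3.05 to 36.3%). The 15.3% of all genes lies within these intervals. The 3 glutathione S-transferase genes counted through 1 shared peak, and with 5 kb in place of 20 kb the count was 1. The P450s had 3 of 99 (3.03%, 0.629 to 8.60%): Cyp1a1 and Cyp2w1 among 60 genes of families 1 to 3, none of 20 in family 4, and Cyp27b1 among 19 others. Glucuronosyltransferases and carboxylesterases each had 0 of 19, which allows a share of up to 17.6% by the exact interval. Por and Alas1 had none.

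**Figure D3:**
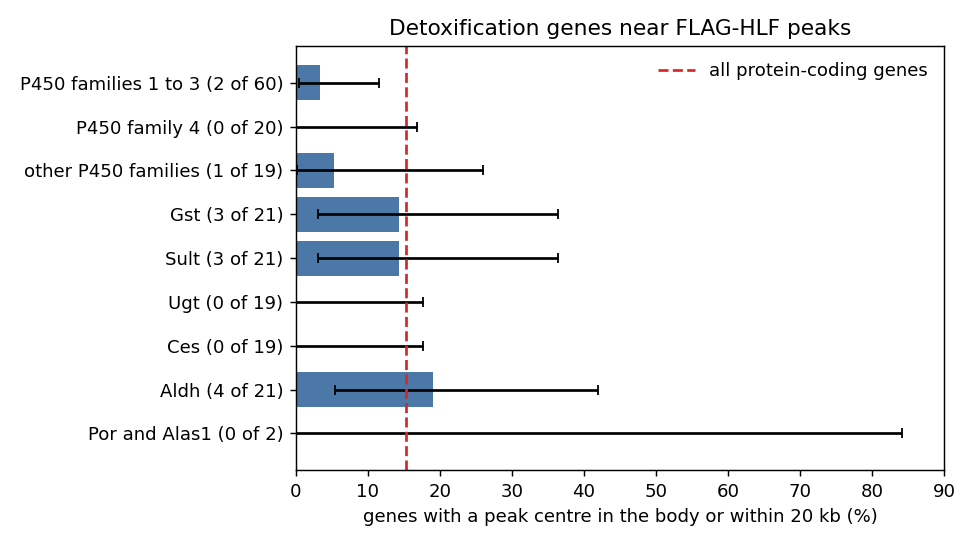
Share of genes in each family (%) with a peak centre in the body or within 20 kb, with exact 95% intervals as bars and the count in brackets. The dashed line is the 15.3% of all protein-coding genes, which lies above the interval of P450 families 1 to 3 and within the intervals of the other families.

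The 13 genes were reached by 11 distinct peaks, 0.349% of the list, and each had 1 peak in reach. Of the 11 peaks 4 lay inside one of these genes, 5 inside another protein-coding gene and 2 in no protein-coding gene. The gene with the nearest boundary was one of the detoxification genes for 6 peaks. The map of the 11 peaks shows each with its neighbours.

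**Figure D4:**
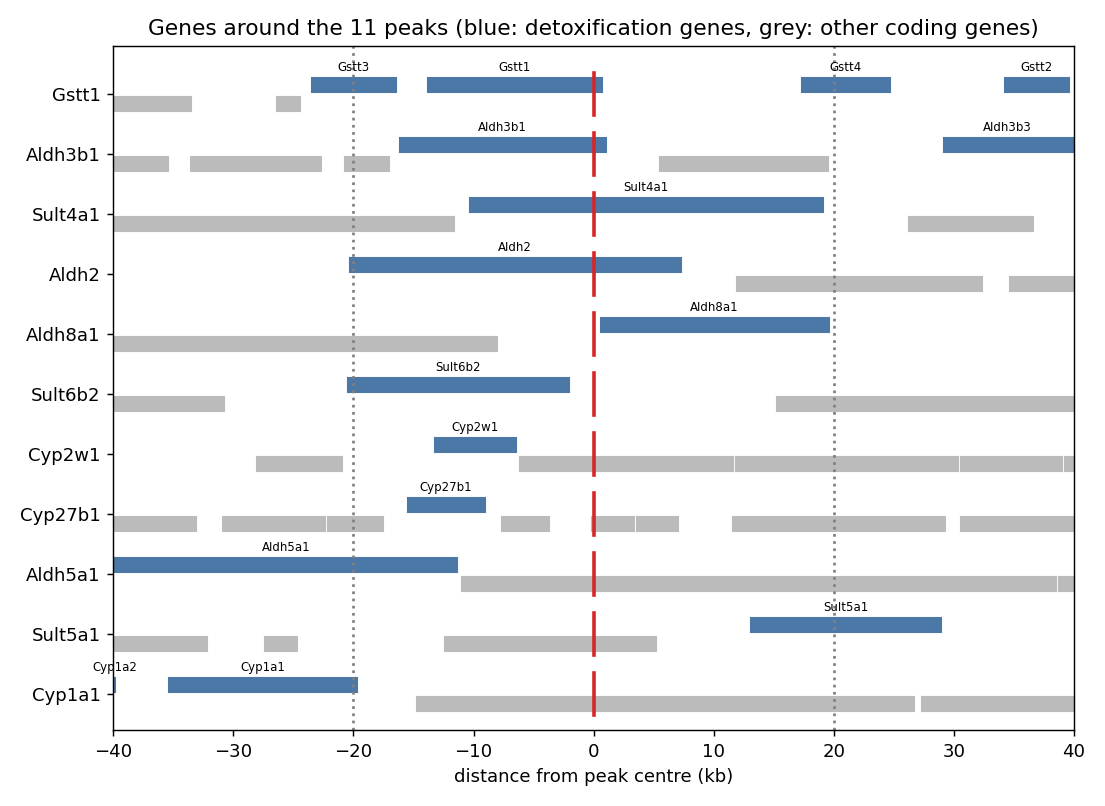
Protein-coding genes around the 11 peaks, 1 row a peak, as distance from the peak centre (kb, bars cut at 40 kb). Blue bars are detoxification genes, grey bars other protein-coding genes, red ticks the peak centres and dotted lines 20 kb. In the rows of Gstt1, Aldh3b1, Sult4a1 and Aldh2 the tick crosses a blue bar, and in those of Cyp2w1, Cyp27b1, Aldh5a1, Sult5a1 and Cyp1a1 a grey one.

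Glutathione S-transferases were reached through 1 peak at the theta-class array on chromosome 10 (75797566 to 75797965). Its centre lay 34 bp upstream of a listed start of Gstt1 (75783813 to 75798584) and 819 bp inside the outer gene boundary. Gstt3 and Gstt4 counted through this peak, at 16.3 and 17.2 kb from it. Gstt2, the remaining gene of the array, lay 34.1 kb away. No other Gst gene had a peak in reach.

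Aldehyde dehydrogenases had the most distinct peaks, 4. At Aldh3b1 (chromosome 19, 3913491 to 3930898) the peak (3929562 to 3929961) was centred 17 bp downstream of a listed start. It was also within 20 kb of Ndufs8 and Unc93b1, the latter encoding a trafficking protein of Toll-like receptors. At Aldh8a1 (chromosome 10, 21377300 to 21396578), linked to kynurenine and retinal metabolism, the peak (21376683 to 21377082) was centred 418 bp upstream of the start, and its last 33 bases reached into the promoter window. These 33 bases held none of the motifs sought. Aldh2 (chromosome 5, 121566027 to 121593824), the mitochondrial enzyme that clears acetaldehyde, had a peak (121586291 to 121586690) 7.33 kb inside its nearer end. For Aldh5a1 (chromosome 13, 24907579 to 24937661), the succinic semialdehyde dehydrogenase of GABA breakdown, the peak (24948724 to 24949123) lay 11.3 kb upstream of the start and inside Gpld1, a gene for a phospholipase that cuts GPI anchors.

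Among sulfotransferases, Sult4a1 (chromosome 15, 84076097 to 84105754), a brain-enriched member, had a peak (84086342 to 84086741) 10.4 kb inside its nearer end. Sult6b2 (chromosome 6, 142785781 to 142804466) had one (142806212 to 142806611) 1.95 kb upstream of its start, in no protein-coding gene. Sult5a1 (chromosome 8, 123142843 to 123158914) was reached at 13.0 kb by a peak (123129681 to 123130080) inside the copine gene Cpne7, on the side away from its start.

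The peaks that reached the 3 P450 genes all lay inside another protein-coding gene and downstream of the P450 gene. For Cyp27b1 (chromosome 10, 127048246 to 127054884), which makes the active form of vitamin D, the peak (127063649 to 127064048) was 8.96 kb beyond the gene. It lay in Cdk4, a cell cycle kinase gene, 313 bp from its boundary, and was within 20 kb of 5 other protein-coding genes in all. Cyp2w1 (chromosome 5, 139352616 to 139359607) was reached at 6.41 kb by a peak (139365817 to 139366216) inside 3110082I17Rik. For Cyp1a1 (chromosome 9, 57687928 to 57703824), the P450 induced through the aryl hydrocarbon receptor, the peak (57723220 to 57723619) was 19.6 kb away and inside Edc3, a gene of mRNA decapping.

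Cyp1a1, Gstt4 and Gstt3, at 19.6, 17.2 and 16.3 kb, were the genes just within the 20 kb limit. Just beyond it were Cyp2d22 at 28.4 kb, Aldh3b3 at 29.0 kb and Cyp1a2 at 30.1 kb. Of the genes known as PAR bZIP targets in liver, Por (chromosome 5, 135670040 to 135735326) was 39.2 kb from the nearest peak centre and Alas1 (chromosome 9, 106233455 to 106247954) 60.7 kb. Cyp7a1, the rate-limiting enzyme of bile acid synthesis, was 82.0 kb away. Of 7 such genes (these 3, Nr1i3, Cyp2b10, Cyp2a4 and Cyp2a5), Nr1i3 was near peaks (14.3%, 0.361 to 57.9%, against 15.3%), both inside the neighbouring Fcer1g and within reach of several genes.

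Lists of other genes of these pathways were written from textbook knowledge, with earlier results of these data known. They held 10 genes near a peak of 98 (10.2%, 5.00 to 17.97%), against the same 15.3%. Of 16 xenobiotic-sensing transcription factors 4 were near a peak (95% interval 7.27 to 52.4%): Nr1i3, Nfe2l2, Nr1h3 and Nr3c1. That interval holds the 15.3% of all genes, so the count cannot be told apart from the background. Nfe2l2, which encodes NRF2, the activator of antioxidant genes, had a peak (chromosome 2, 75685469 to 75685868) inside the gene. Nr3c1, the glucocorticoid receptor gene, had 1 inside and 1 at 4.29 kb outside. Nr1h3, encoding the oxysterol receptor LXR alpha, was reached at 1.51 kb from inside Madd. Ahr, Nr1i2, Ppara and Rxra had none in reach.

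Of 11 genes listed under glutathione synthesis and reduction, 4 were near a peak (36.4%, 10.9 to 69.2%), an interval that holds the 15.3% of all genes. The list also held a gene of glutathione breakdown (Ggt1) and one of thioredoxin reduction (Txnrd1), both among the 4. At Gpx1, encoding a glutathione peroxidase, the peak (chromosome 9, 108338786 to 108339185) was centred 95 bp upstream of the start. At Gsr, encoding glutathione reductase, it was centred 792 bp outside the gene. Txnrd1, encoding thioredoxin reductase, had one at 2.48 kb, and Ggt1, which breaks glutathione down outside the cell, one at 6.80 kb, inside Lrrc75b. Gclc and Gclm, the subunits of the rate-limiting ligase, had none. Of 12 genes of haem synthesis and breakdown Alad, the second enzyme of the pathway, had a peak, inside the gene (8.33%, 0.211 to 38.5%). Of 35 other phase I and II enzymes Mgst2 had one, also inside (2.86%, 0.0723 to 14.9%, against 15.3%). None of 17 transporters and none of 7 redox partners did, with exact upper limits of 19.5% and 41.0%, both above the 15.3% of all genes.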

How the data were processed

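The authors deposited 1 peak list, of 3 columns (chromosome, start, end) and no other measured quantity. The submitters' processing notes list Bowtie2 2.0.6, MACS2 2.0.10 and mm10 without saying what each did. Not given in the sources used here: the threshold, the use of the control and the step that set all widths to 400 bp. A uniform width hides how far enrichment reached, so the start plus 200 bp stood for the peak. Genes came from RefSeq (GRCm38.p6, the coordinates of mm10): 49210 of 49997 rows, those on chromosomes 1 to 19 and X starting above 3 Mb. Start sites and strand came from the RefSeq promoter table. Shares carry exact Clopper-Pearson and densities exact Poisson 95% intervals (scipy 1.17.1). The share of all protein-coding genes near a peak was the background for counts of genes, and no test was run. Distances were checked on planted peaks. All genes near a peak are named, and so are 3 on each side of the limit, Por, Alas1 and Nr1i3. The genes and lists were chosen with earlier results of these data known. No per-sample columns went unused.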

Additional observations from a re-analysis of the deposited data

How the results depend on the processing

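The count of 13 genes near a peak was 6 at 5 kb, 23 at 50 kb, 56 at 100 kb, 4 in the gene body and 2 within 1 kb of either end, where the changed reach is the cause by construction. It was 7 by the nearest boundary within 100 kb, which widens the reach and gives each peak to 1 gene. Of those 7, Cyp7b1, 75.7 kb from its peak, was not among the 13. The count stayed at 13 when any base of the interval counted and when the 38 pseudogene and noncoding rows of like symbol were added. By family, at 5 kb, P450 families 1 to 3 and the other P450s went to 0 and Gst to 1. At 50 kb, P450 families 1 to 3 and Sult went to 5, the other P450s to 2, and Por with Alas1 to 1. In the gene body, both P450 groups went to 0, Gst and Sult to 1 and Aldh to 2. By the nearest boundary, P450 families 1 to 3 went to 0 and Gst to 1. The other P450s stayed at 1, with Cyp7b1 in place of Cyp27b1. The 11 distinct peaks became 4, 6 and 20 with the body, 5 kb and 50 kb, and stayed 11 with peaks within 25 kb counted once. Loci near a peak stayed 11 when genes were joined within 50 or 200 kb. Loci with 5 or more genes then numbered 7 at 50 kb and 15 at 200 kb, and their distances are not given. The density in the gene body, at 5 kb and at 50 kb (0.788, 0.871 and 1.15 per Mb) stayed within the interval given. A stricter score was not run, as the list has no score. The share by 100 kb, the split by symbol stem and TTGCATAA alone were chosen after seeing the data. No paired analysis was possible because only the FLAG-HLF sample, with 1 replicate, has peaks here, which also leaves no replicate to omit. Depth is unknown, so a missing peak does not show that HLF was absent from a gene.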
